A study of Homo sapiens with 4 samples.

Results

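The comparison was of A8i-A, the HeyA8-derived line with ECM1a put back, against A8, the parental HeyA8 line. HeyA8 is a human ovarian cancer cell line derived from the Hey line. The 2 libraries were taken by their labels from the 4 of the series, and all 9885 genes of the table were used. The label of A8 names no construct. A8i was made from A8 with a lentiviral short hairpin RNA against ECM1 and selection with puromycin. A8i-A was made from A8i with a cDNA for ECM1a carrying an HA tag, after a further selection by fluorescence or drug, and A8i-B was made in the same way with ECM1b. A8i-A therefore differed from A8 by the hairpin, the viral vectors and the selections as well as by the source of its ECM1a, and these cannot be told apart here, since no scrambled-hairpin or empty-vector library was analysed. The question of the comparison was what stayed different from the parental line once ECM1a was put back. With 1 library for each line there was no replicate check, and no test of the lines was made.

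ECM1 is a glycoprotein of the extracellular matrix, made as several isoforms by alternative splicing. ECM1a is secreted and contains the segment encoded by exon 7, whereas ECM1b is made when exon 7 is skipped. Integrins are receptors that bind matrix proteins on the outside of the cell and pass signals through focal adhesion kinase (FAK), paxillin, AKT and Rac to the actin cytoskeleton. Messenger RNAs are assembled by the spliceosome under the control of SR proteins, which mostly favour the inclusion of exons, and of hnRNP proteins, which often repress it.

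The difference between the isoforms lies in exon 7 of ECM1, on the forward strand of chromosome 1 of GRCh37, the assembly also called hg19, from 150483933 to 150484307. The exon is 375 nt long, which is 125 whole codons, and none of the exons of the annotated ECM1b transcript overlaps it. The start of this exon is given with its intron flank because it is a site that is joined in ECM1a and passed over in ECM1b. Capitals mark the AG that closes the intron before the exon.

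Start of exon 7, chr1:150483913-150483952: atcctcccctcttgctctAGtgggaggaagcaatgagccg

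A cDNA lacks introns, so the ECM1a put back into A8i-A carries exon 7 already joined and does not use this site. ECM1 itself had 2 events in A8 and 2 in A8i-A, beside 2 in A8i and 2 in A8i-B. The silenced and reintroduced gene was thus equal in all 4 libraries. An event number is not an expression level, and it checks neither the silencing nor the return of ECM1a.

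The deposited values count events for each gene in whole numbers, and the kind of event is not given in the sources used here. They are not read counts and were not scaled to depth, and the number of reads behind each library is unknown. The totals over all genes were 24513 events in A8 and 22691 in A8i-A, beside 20535 in A8i and 24236 in A8i-B. Where 4 numbers are given in a row in what follows, they stand for A8, A8i, A8i-A and A8i-B in turn. Genes with at least 1 event numbered 8126, 7290, 7798 and 8068. Of 15 markers of ovarian and other epithelial cells, 7 are listed in the table, with 23 events summed in A8 and 17 in A8i-A, and EPCAM, which encodes an epithelial adhesion protein, was at 0 in all 4 libraries. Leukocyte markers, 5 of 14 listed, summed to 4 and 5 events, and the 2 listed of 9 fibroblast markers to 4 and 2. Mesenchymal markers, 5 of 8 listed, summed to 16 in A8 and 15 in A8i-A, 1 of 4 mesothelial markers is listed and had a single event, in A8i-A, and none of 5 endothelial markers is listed.

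A8i-A had 92.6% of the events of A8, with a 95% exact Clopper-Pearson interval of 90.9–94.3%. The interval takes events as independent and covers counting error only. The line without ECM1a put back, A8i, had 83.8% of the events of A8 (82.2–85.3%), and A8i-B had 98.9% (97.1–100.6%). The 3 ratios share the A8 library. A8i-A stood between A8i and A8i-B, and its total was below that of the parental line beyond counting error.

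Gene by gene, 2460 genes (24.9%) had more events in A8i-A than in A8, 3306 (33.4%) had fewer and 4119 (41.7%) were equal. The equal genes comprised 3197 with the same number above 0 and 922 at 0 in both libraries. A further 3503 genes were apart by exactly 1 event, so that 77.1% of all genes lay within 1 event. The 2460 higher genes gained 4125 events and the 3306 lower genes lost 5947, a net loss of 1822. When each library was expressed as a share of its own total, 63.2% of the 8963 genes with an event in the pair were higher in A8i-A. On raw events, 42.7% of the unequal genes were higher. The sets of genes differ, since the 3197 genes with the same number above 0 count as higher on the share scale. On the share scale the median gene was shifted by 0.06 in log2, since a gene with the same number of events in both libraries takes a larger share of the smaller total.

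**Figure D1:**
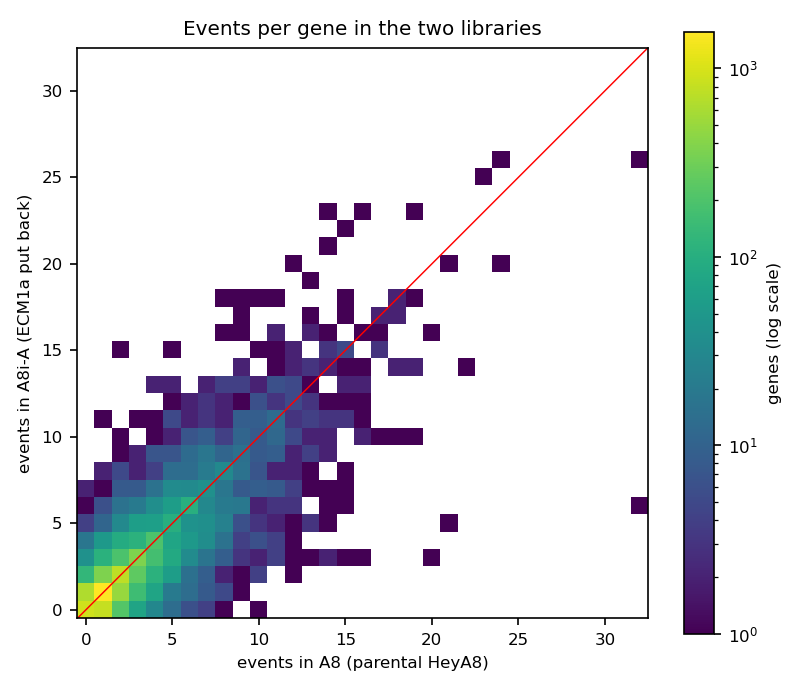
Each cell of the grid is a pair of event numbers, with events in A8 on the x axis, events in A8i-A on the y axis and colour for the number of genes on a log scale. The red line marks equal numbers, and 4119 of 9885 genes lie on it.

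A gene was called 2-fold apart when its events + 1 differed by a factor of at least 2. By this rule 1117 genes (11.3% of all genes) were higher in A8i-A and 1605 (16.2%) were lower. For A8i against A8 the same rule gave 852 genes (8.62%) higher and 2000 (20.2%) lower, and for A8i-B against A8 it gave 1284 (13%) higher and 1367 (13.8%) lower. A change between 0 events and 1 is enough to pass it. Of the 1165 genes (11.8%) with an event in A8 and none in A8i-A, 820 (70.4%) had a single event, and of the 837 (8.47%) with the reverse, 640 (76.5%) had a single event. Among the 3563 genes with at least 5 events in the pair, 178 (5%) were 2-fold higher in A8i-A and 307 (8.62%) were 2-fold lower. With each library as a share of its total, 1119 genes were 2-fold higher and 542 were 2-fold lower. Falls that sat exactly on the limit, such as from 1 event to 0 or from 3 to 1, then lie just inside it.

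The spread between the libraries was small for event numbers of this size. The squared difference over the sum, averaged over genes with an event in the pair, was 0.60 for A8 and A8i-A, where independent Poisson counts would give about 1. Over the 6 pairs of the 4 libraries it ran from 0.58 to 0.65. At least 4 events separated A8 from A8i-A at 456 genes, against 456 to 518 over all pairs. The A8 and A8i-A libraries were therefore no further apart in this measure than other pairs of the series were. Across genes, which are not independent replicates and share the same annotation, Pearson's r between the 2 libraries was 0.81 and Spearman's rho was 0.72.

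The largest deficits in A8i-A were ranked by the difference in events, so they could only be at genes with many events in A8. AC093838.4 (ENSG00000152117), a transcribed pseudogene that the annotation names SMPD4BP, had 32 events in A8 and 6 in A8i-A, beside 6 in A8i and 12 in A8i-B. All 3 derived libraries were below the parental one, and the log2 ratio of A8i-A over A8 was -2.24. SMPD4, the sphingomyelinase gene of the same family, had 8 events in A8 and 9 in A8i-A, and the assignment of reads between near-identical copies is uncertain. SLMAP (ENSG00000163681), which encodes a membrane-associated protein of a phosphatase and kinase complex, had 20 events in A8 and 3 in A8i-A, beside 11 in A8i and 18 in A8i-B. A8i-A was the lowest library at SLMAP, with a log2 ratio of -2.39 against A8. TTLL3, a tubulin glycylase, had 21, 9, 5 and 8 events. It overlaps the readthrough gene ARPC4-TTLL3, which had 3 events in A8 and 3 in A8i-A, so the share of each is uncertain.

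CCDC66, a protein of centrosomes and cilia, had 16 events in A8 and 3 in A8i-A, beside 8 in A8i and 4 in A8i-B. PBRM1, a bromodomain subunit of a SWI/SNF chromatin remodeller, had 12, 7, 2 and 7 events. At both of these genes A8i-A held the lowest number. ZNF514, a zinc finger gene, had 15 events in A8 and 3 in A8i-A, beside 4 in A8i and 14 in A8i-B. UBE3A, a ubiquitin ligase, had 14, 3, 5 and 13 events. ZNF514 and UBE3A were thus low in A8i and A8i-A alike, and in A8i-B they were within 1 event of the parental line. CAMK2G, the gamma subunit of a calcium- and calmodulin-dependent kinase, had 14, 3, 3 and 7 events. CLHC1 had 14 events in A8 and 3 in A8i-A, beside 1 in A8i and 0 in A8i-B, and PAPPA2, a protease that cleaves binding proteins of insulin-like growth factors, had 10, 1, 0 and 0. These last genes were low in all the derived libraries. PRPF38B, a splicing factor gene, had 13 events in A8 and 3 in A8i-A, beside 10 in A8i and 2 in A8i-B, and UBE2F, an enzyme of NEDD8 conjugation, had 12, 11, 3 and 7.

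SLMAP (chr3:57741177-57915730), CCDC66 (chr3:56591189-56655865) and PBRM1 (chr3:52579368-52719933) lie in the same stretch of chromosome 3 of GRCh37, an observation made after their values were seen. The 66 genes of the table that start between 50 and 60 Mb on this chromosome had 210 events in A8 and 165 in A8i-A, or 78.6% (63.7–96.8%). Among 74 windows of 10 Mb with at least 100 events in A8, this ratio was number 4 from the lowest, in a range from 73.7% to 125%. Without the 3 genes the window held 162 events in A8 and 157 in A8i-A, or 96.9% (77.3–121%), so the deficit of the window was mostly that of the 3 genes. Because these genes were picked for their deficits, leaving them out had to raise the ratio. The rank of the window rests on the same choice. By whole chromosomes the ratio was lowest on chromosome 10, at 84.7% (76.4–93.9%), and highest on chromosome 22, at 100%.

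The largest excesses were smaller than the largest deficits, and NOP14-AS1, PSMA3-AS1 and TPT1-AS1 among them were long noncoding genes. Of the 522 long noncoding genes matched to the annotation, 161 were higher in A8i-A than in A8 and 171 were lower. The 2-fold limit was passed by 23.9% of them upward and 23.4% downward. On raw events the class as a whole thus did not lean towards excess. NOP14-AS1 (ENSG00000249673), a long noncoding RNA antisense to NOP14, had 2 events in A8 and 15 in A8i-A, beside 1 in A8i and 8 in A8i-B, a log2 ratio of 2.42 of A8i-A over A8. PSMA3-AS1 had 4, 5, 13 and 9 events and TPT1-AS1 had 9, 7, 18 and 8. In each of these antisense genes A8i-A was the highest library. Their sense partners were equal in the 2 libraries, since NOP14 was at 0 in A8 and in A8i-A, PSMA3, a proteasome subunit, had 6 events in both, and TPT1, a translationally controlled protein, also had 6 in both. The sources used here do not say whether counting used strand, so events of a gene and its antisense partner may not have been told apart.

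CLEC2D (ENSG00000069493), a lectin-like ligand of a receptor on natural killer cells, had 1 event in A8 and 11 in A8i-A, beside 1 in A8i and 3 in A8i-B. Its log2 ratio of 2.58 was the highest among the 12 largest excesses. KRT15, a type I keratin of basal epithelial cells, had 8, 5, 18 and 3 events. THBS3, thrombospondin 3 of the extracellular matrix, had 5 events in A8 and 13 in A8i-A, beside 2 in A8i and 3 in A8i-B. CLEC2D, KRT15 and THBS3 shared one pattern, in which A8i-A was well above the 3 other libraries. HMGN1, a nucleosome-binding protein, had 14 events in A8, A8i and A8i-B and 23 in A8i-A. JMJD7-PLA2G4B, a readthrough of neighbouring genes, had 4 events in those 3 libraries and 13 in A8i-A. For HMGN1 and the readthrough the excess was over 3 equal libraries. PACRGL had 5, 3, 15 and 9 events and TRMU, which modifies mitochondrial transfer RNA, had 3, 6, 11 and 4. NEURL4, found at centrioles, had 2 events in A8 and 10 in A8i-A, beside 8 in A8i and 7 in A8i-B, and CFAP54, needed for ciliary structure, had 5, 20, 13 and 21. At NEURL4 and CFAP54 the parental library was the low one, and all the derived libraries were above it.

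**Figure D2:**
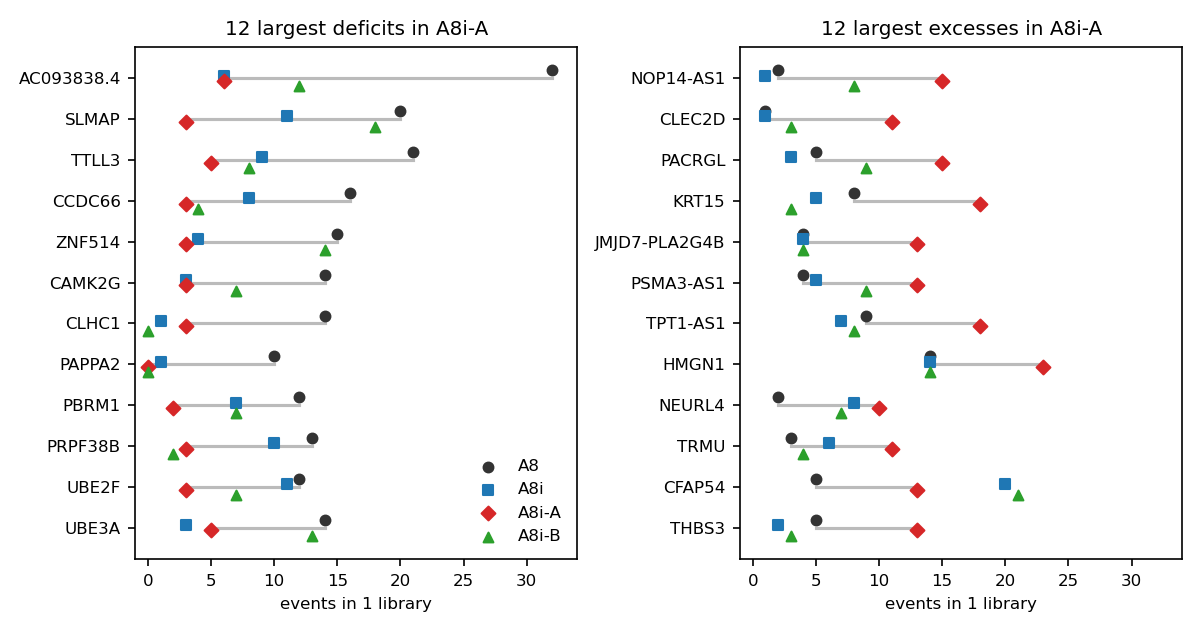
Events in 1 library (x axis) for the 12 genes with the largest deficit and the 12 with the largest excess in A8i-A against A8, with a symbol for each of the 4 libraries and a grey line from A8 to A8i-A. These genes were ranked by that difference; AC093838.4 runs from 32 events in A8 to 6 in A8i-A, and NOP14-AS1 from 2 to 15.

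Some genes had events in the parental line and none after ECM1a was put back. At least 4 events in A8 and 0 in A8i-A were found at 56 genes (0.567%), and the reverse at 25 (0.253%). ZMYM1 had 7 events in A8 and 0 in A8i-A, beside 1 in A8i and 7 in A8i-B, and TMCO4 had 6, 4, 0 and 4. In both the loss was seen in A8i-A while A8i-B kept at least 4 events. PIGA, which starts the synthesis of the membrane anchor glycosylphosphatidylinositol, had 7, 4, 0 and 1 events, and HLCS, which attaches biotin to carboxylases, had 6, 0, 0 and 3. In the opposite direction, GABRE, a subunit of receptors for gamma-aminobutyric acid, had 0 events in A8 and 7 in A8i-A, beside 1 in A8i and 1 in A8i-B. RAPH1, or lamellipodin, which brings actin-elongating Ena/VASP proteins to the leading edge, had 0, 0, 5 and 5. MED28, a Mediator subunit, and PPM1A, a protein phosphatase, each had 0, 2, 5 and 1. RAPH1 was level in A8i-A and A8i-B, whereas GABRE, MED28 and PPM1A were highest in A8i-A.

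The parental line stood alone at a few genes. In 25 genes (0.253%) A8 was at 0 and each derived library had at least 2 events, and in 22 (0.223%) A8 had at least 3 and each derived library had 0. IGFN1, an immunoglobulin-like and fibronectin type III domain protein, had 0 events in A8 and 6 in A8i-A, beside 4 in A8i and 17 in A8i-B. CEP152, needed for centriole duplication, had 0, 4, 4 and 2, RCHY1, a ubiquitin ligase of p53, had 0, 2, 4 and 4, and AHNAK2 had 0, 5, 4 and 2. In these genes the parental library alone had no event. The reverse was seen at TMEM145 with 7 events in A8 and 0 in the 3 others, at FAM86B3P, a pseudogene, with 6, and at ARMCX3, DAB2IP, KIAA1109, MAPT and RFX3 with 4 each. DAB2IP restrains Ras signalling, MAPT encodes the microtubule protein tau, and RFX3 is a transcription factor of ciliated cells.

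Other genes with many events were nearer to the parental number, among them 5 with the most events in the pair. ANXA2, a calcium-dependent phospholipid-binding protein, had 32 events in A8 and 26 in A8i-A, beside 26 in A8i and 28 in A8i-B. HNRNPH1, an RNA-binding splicing regulator, had 24, 26, 26 and 21, and EEF1D, an elongation factor subunit, had 23, 19, 25 and 24. QARS, the glutaminyl-tRNA synthetase, had 24, 18, 20 and 19. Grouped by the events in A8i and A8i-B, which were not part of the comparison, the ratio of A8i-A to A8 was 82.1% (74.2–90.9%) over the 1150 genes with none there and 95.4% (92.4–98.5%) over the 987 with more than 10. The deficit of A8i-A was thus in larger proportion at genes with few events in A8i and A8i-B. Since A8i-A and A8i-B were both made from A8i, this grouping is not one by event level alone.

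The deficit also followed the length of the transcript. Among 9818 genes matched to the annotation by identifier (99.3%), the 25% whose longest annotated transcript was shortest, 75 to 2459 nt, had 5365 events in A8 and 5401 in A8i-A, or 100.7% (96.9–104.6%). The ratio was 95.4% in the next 25% of genes, 91.2% in the next and 83.6% (80.4–86.8%) in the longest, from 5678 to 44880 nt. On raw events the short genes were level with the parental line and the long genes were not. On shares of the library total every class would stand higher by the same factor, and the short genes would lie above the parental line. Only the order of the classes is thus free of the scale. A8i against A8 stood at 88.2%, 85.7%, 83.9% and 77.8% from the shortest class to the longest. A8i-B stood at 100.1%, 98.0%, 101.5% and 95.9%, which is no steady fall. By GC content of the transcript the ratio of A8i-A to A8 was 86.4% (83.1–89.9%) in the lowest 25% of genes and 98.5% (95.2–101.8%) in the highest. In the same classes A8i stood at 83.6% and 86.7%, and A8i-B at 99.6% and 99.5%. By number of exons the ratio of A8i-A to A8 was 98.1% (93.9–102.6%) for genes with 1 to 6 exons and 87.6% (84.7–90.6%) for those with 17 to 146. There A8i stood at 86.0% and 82.9%, and A8i-B at 101.5% and 99.9%.

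Length and GC content were then crossed. On raw events short genes were level at every GC content, with ratios from 98.0% to 101.6%. Among the longest genes the ratio was 79.2% in the class of lowest GC content and 92.5% in the highest. Across genes, the log2 ratio of A8i-A over A8 had a Spearman's rho of -0.11 with transcript length and 0.08 with GC content, so single genes followed neither closely. Protein-coding genes, at 92.6%, and long noncoding genes, at 96.6% (87.6–106%), were close, and pseudogenes were at 85.0% (74.5–96.9%). The 15 genes of other types had 13 events in A8 and 23 in A8i-A, or 177% (85.9–380%), with 7 higher and 0 lower.

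**Figure D3:**
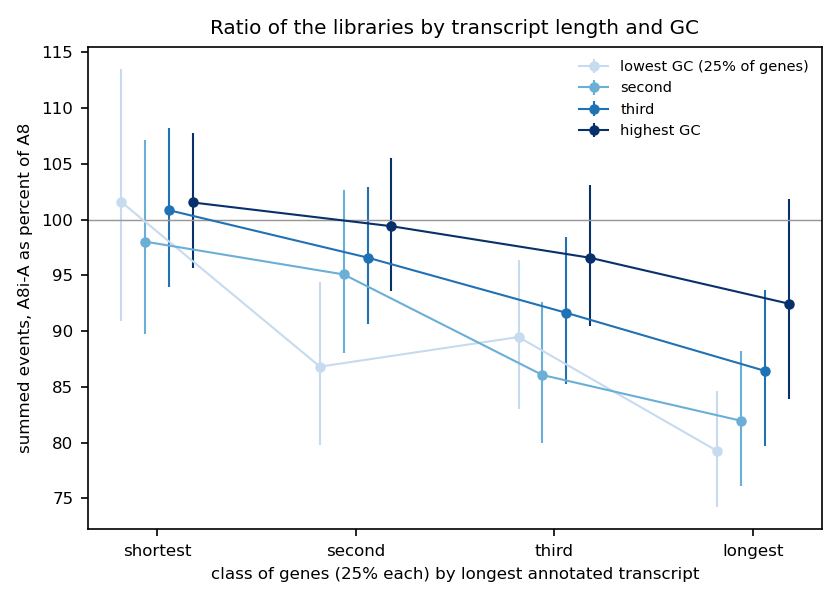
Summed events in A8i-A as a percent of A8 (y axis, not starting at 0) for 4 equal classes of genes by longest annotated transcript (x axis) and by GC content (shade), with 95% exact intervals for counting error. On raw events the shortest genes lie between 98.0% and 101.6%, and the longest genes of lowest GC content lie at 79.2%.

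Because length and GC content moved with the ratio, the sums of gene lists can be read beside the ratio that the classes of length and GC content of their own genes had over all genes, called here the background ratio. It ran from 83.7% to 97.5% over the 29 lists. Sums of 20 lists were below the parental number, and on shares of the total 7 of these 20 lay above it, namely the actomyosin, hnRNP, SR, cell cycle, DNA repair, cholesterol and long noncoding lists. Integrin subunits had 32 events in A8 and 32 in A8i-A over 12 genes, or 100% (59.3–169%), with a background ratio of 91.0%. Of the 12, 5 were higher in A8i-A, 4 were lower and 3 were equal, where 24.9%, 33.4% and 41.7% of all genes were so. The counts of every list that follows are to be read beside these same shares of all genes. ITGAX, the integrin subunit alpha X, had 1 event in A8 and 0 in A8i, A8i-A and A8i-B. Its partner ITGB2, the subunit beta 2, had 3 events in A8 and 3 in A8i-A, beside 2 in A8i and 2 in A8i-B. Each of these differences is of 1 event. ITGB1, the beta subunit shared by many matrix receptors, had 7, 6, 5 and 6 events, and ITGA5, of the fibronectin receptor, had 2, 4, 4 and 3. ITGAV, the alpha subunit of vitronectin receptors, was at 0, 0, 1 and 0, and ITGB5, one of its partners, had 5, 3, 3 and 5.

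Matrix ligands of integrins had 42 events in A8 and 49 in A8i-A over 19 genes, or 116.7% (75.7–181%), with 6 genes higher, 4 lower and 9 equal. THBS3 accounted for the excess, with 8 more events in A8i-A. Laminin chains, which build basement membranes, went both ways. LAMA4 had 0 events in A8 and 2 in A8i-A, beside 0 in A8i and 2 in A8i-B, whereas LAMA3 had 4, 0, 1 and 3 and LAMA5 had 3, 8, 1 and 6.

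The FAK, paxillin, AKT and Rac genes, which act below integrins, had 108 events in A8 and 95 in A8i-A, beside 90 in A8i and 105 in A8i-B. The 88.0% ratio of A8i-A (66.1–117%) stood beside a background ratio of 92.7%. Of the 33 genes, 5 were higher, 12 were lower and 16 were equal. ZYX, or zyxin, a focal adhesion protein, had 4 events in A8 and 0 in A8i, A8i-A and A8i-B, and GIT1, a paxillin-binding scaffold, had 5, 3, 2 and 3 events. The genes of the signalling proteins that the study followed were higher or within 1 event. PXN, which encodes paxillin, had 10 events in A8 and 13 in A8i-A, beside 10 in A8i and 9 in A8i-B, and PTK2, which encodes FAK, had 11, 12, 10 and 10. AKT1 had 5, 7, 8 and 6 events and AKT2 had 9, 7, 10 and 12. RAC1 had 1 in every library.

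Actomyosin genes had 143 events in A8 and 135 in A8i-A over 45 genes, or 94.4% (74.1–120%), with 8 higher, 12 lower and 25 equal. MYH9, the heavy chain of nonmuscle myosin IIA, had 1 event in A8 and 0 in the 3 others. Cell-cell junction genes had the lowest ratio of the 29 lists, with 47 events in A8 and 35 in A8i-A, or 74.5% (46.7–118%), beside a background ratio of 83.7%. Of its 15 genes, 2 were higher, 6 lower and 7 equal. LLGL1, a cell polarity gene, had 5, 1, 2 and 2 events, and TJP1, a scaffold of tight junctions, had 3, 4, 1 and 1. JUP, or plakoglobin, and DSP, or desmoplakin, both of desmosomes, had a single event, in A8i-A only.

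Regulators of splicing were close to the parental numbers. The hnRNP genes had 121 events in A8 and 117 in A8i-A over 25 genes, or 96.7% (74.3–126%), with 7 higher, 6 lower and 12 equal. HNRNPLL had 2 events in A8 and 2 in A8i-A, beside 1 in A8i and 2 in A8i-B, HNRNPL had 1 in each library, and HNRNPM had 6, 6, 7 and 7. RBMX, a nuclear RNA-binding protein, had 6, 4, 2 and 4 events, and PTBP1, a repressor of exon inclusion, had 10, 6, 5 and 10. The SR proteins and their kinases had 101 events in A8 and 97 in A8i-A, or 96.0% (71.9–128%). SRSF1, an SR protein that promotes the inclusion of exons, had 4 events in A8 and 8 in A8i-A, beside 7 in A8i and 5 in A8i-B, and CLK4, a kinase of SR proteins, had 7, 10, 10 and 4. SRRM2, of nuclear speckles, had 7, 5, 3 and 6 and SRSF6 had 3, 1, 1 and 1. SR genes were higher and lower in near-equal number, 6 and 7 of 21.

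The spliceosome list had 191 events in A8 and 175 in A8i-A over 53 genes, or 91.6% (74.2–113%), with 11 higher, 20 lower and 22 equal. PRPF4, a protein of the U4/U6 particle, had 2 events in A8 and 0 in A8i-A, beside 0 in A8i and 4 in A8i-B. LUC7L3, which associates with the U1 particle, had 5, 4, 11 and 6, and AQR, an RNA helicase, had 0, 0, 2 and 0. Genes of nonsense-mediated decay, which removes transcripts with premature stop codons, had 46 and 50 events, or 108.7% (71.4–166%), and CASC3, of the exon junction complex, had 2, 1, 5 and 2. Genes known for splicing switches between epithelial and mesenchymal cells had 179 events in A8 and 179 in A8i-A. Of these 34 genes, 13 were higher, 9 were lower and 12 were equal. MAGI1, a junction scaffold, had 7, 7, 4 and 5 events. RNA interference genes, which process and use hairpins, had 39 and 32 events over 15 genes, or 82.1% (49.8–134%), with 1 higher, 7 lower and 7 equal. TNRC6C, a partner of Argonaute proteins, had 2, 0, 0 and 2 events and AGO4 had 1, 0, 3 and 0.

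**Figure D4:**
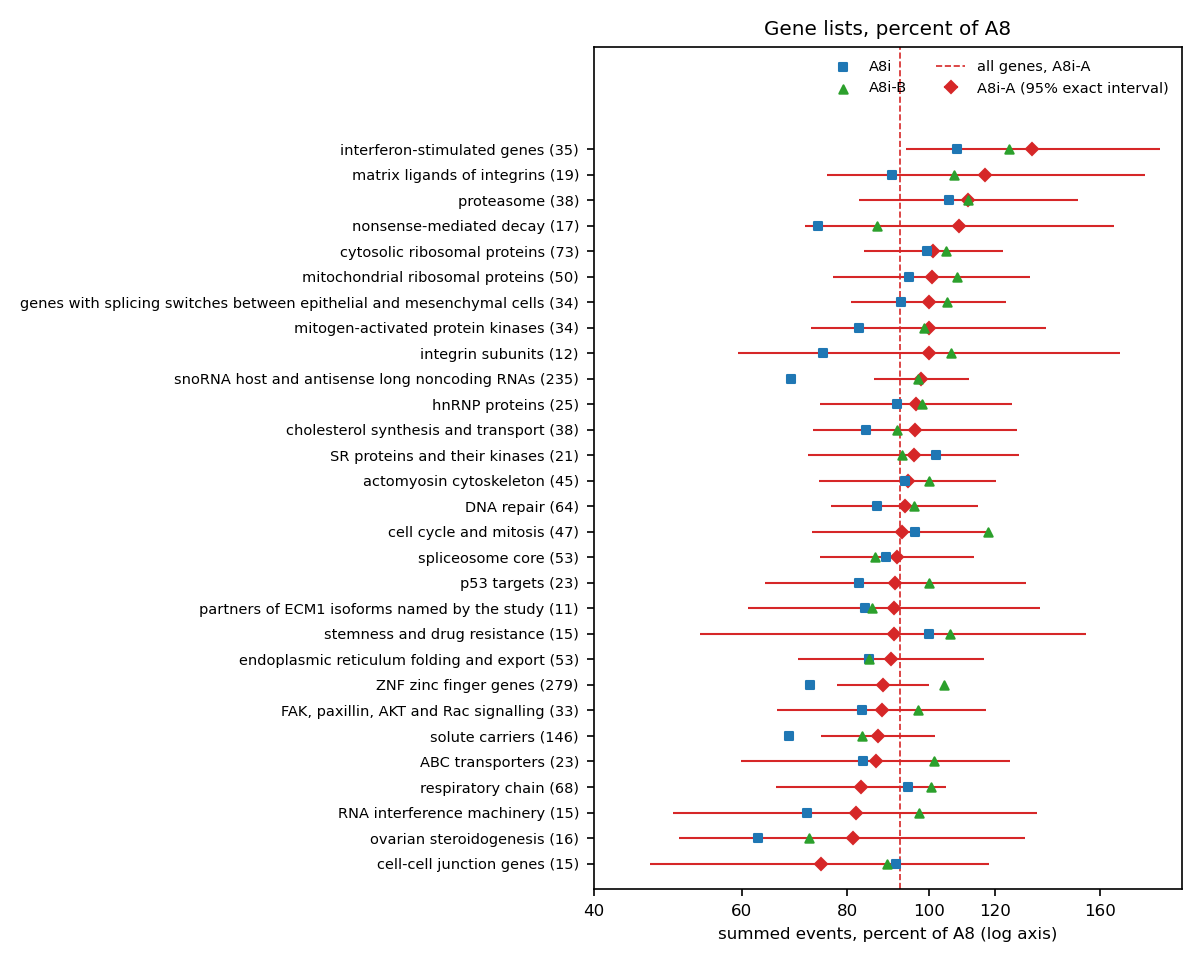
Summed events of each gene list as a percent of A8 (log axis), with the number of listed genes in brackets, for A8i-A with its 95% exact interval for counting error and for A8i and A8i-B as points. The dashed line is the 92.6% of all genes in A8i-A, and the intervals of all lists but the interferon-stimulated genes cross it.

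Interferon-stimulated genes, which cells switch on in response to interferon and to viral RNA, had the highest ratio of the 29 lists. They had 61 events in A8 and 81 in A8i-A, beside 66 in A8i and 76 in A8i-B over 35 genes. The ratio of A8i-A was 132.8% (94.1–188%) beside a background ratio of 94.0%, and its interval lay above the 92.6% of all genes and included 100%. It was the only list of the 29 whose interval did not cross 92.6%, and the intervals were not adjusted for the number of lists. Of the 35 genes, 15 were higher in A8i-A, 6 were lower and 14 were equal. The 2-fold limit was passed by 10 upward and 2 downward, where 11.3% and 16.2% of all genes passed it. IFI27 had 0 events in A8 and 3 in A8i-A, beside 0 in A8i and 2 in A8i-B, and IFI44 had 1, 1, 4 and 5. DDX58, or RIG-I, a sensor of viral RNA, had 1, 0, 3 and 0 events, ISG20, an exonuclease, had 1, 1, 3 and 1, and IFI6 had 1, 3, 3 and 3. These were gains of 2 or 3 events from at most 1. IRF3, a transcription factor of the interferon response, contributed the largest difference, with 11, 17, 18 and 8 events. The ratio of the list thus rested in part on this gene, and it was not computed without IRF3. Whether the interval of the list would still lie above 92.6% without IRF3 is therefore not known here. The 6 members with more events in A8 included EIF2AK2, or PKR, and SAMD9L, each with 1, 0, 0 and 2, and IRF7, a related factor, with 8, 5, 5 and 8. The others were HLA-B, IFI44L and IRF9, each lower by 1 event in A8i-A. The median log2 ratio of the list was 0, as over all genes.

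**Figure D5:**
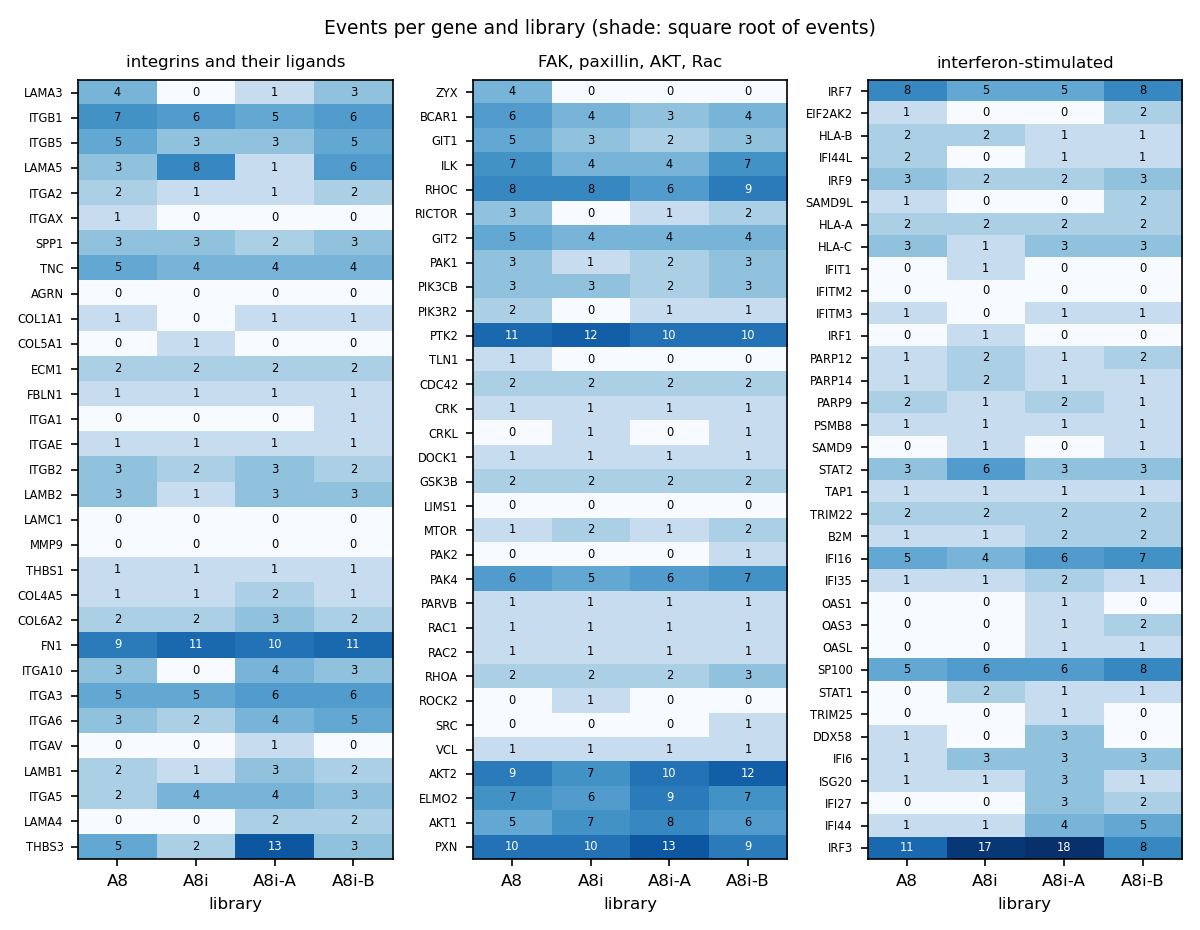
Event numbers printed for genes (rows) and library (columns) of 3 sets, integrins with their matrix ligands, FAK, paxillin, AKT and Rac genes, and interferon-stimulated genes, with a darker blue for more events. Rows run from the largest deficit to the largest excess in A8i-A against A8, and most genes differ by 0 or 1 event.

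Genes of the respiratory chain and its assembly, which carry out oxidative phosphorylation in mitochondria, had 166 events in A8 and 138 in A8i-A, beside 157 in A8i and 167 in A8i-B. The ratio of A8i-A was 83.1% (65.8–105%) beside a background ratio of 95.2%, and A8i-A was the lowest of the 4 libraries. Of the 68 genes, 8 were higher, 19 were lower and 41 were equal, where 24.9%, 33.4% and 41.7% of all genes were so. Higher and lower genes were thus both a smaller share of the list than of all genes, and equal genes a larger one. The shortfall was greater for higher genes than for lower ones. NDUFS1, the largest subunit of complex I, had 3 events in A8 and 0 in A8i-A, beside 5 in A8i and 4 in A8i-B. ATP5G2, a subunit of the ATP synthase ring, had 1, 1, 4 and 1. Ribosomal protein genes of the mitochondrion had 113 and 114 events, or 100.9% (77.1–132%), and those of the cytosol had 224 and 227, or 101.3% (83.9–122%). Among the latter, RPS15A, of the small subunit, had 9 events in A8, A8i and A8i-B and 3 in A8i-A, and RPL6, of the large subunit, had 0, 1, 3 and 3. Proteasome genes had 87 and 97 events, or 111.5% (82.6–151%). PSME2, of the proteasome activator that interferon induces, had 5, 4, 11 and 6 events and PSMA6 had 1, 5, 4 and 3.

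The transporter lists, like all genes together, summed to fewer events in A8i-A than in the parental line. Solute carriers had 349 events in A8 and 304 in A8i-A, beside 238 in A8i and 291 in A8i-B over 146 genes, and the ratio of A8i-A was 87.1% (74.4–102%). The background ratio was 92.4%, and the interval included the 92.6% of all genes. Of these 146 genes, 36 were higher, 56 were lower and 54 were equal, where 24.9%, 33.4% and 41.7% of all genes were so. SLC1A4, an amino acid transporter, had 3 events in A8 and 0 in the 3 other libraries, and SLC11A2, an iron transporter, had 0, 0, 3 and 0. ABC transporters, several of which pump drugs out of cells, had 67 and 58 events, or 86.6% (59.8–125%), with 3 higher, 7 lower and 13 equal. Their background ratio was 93.3%, which the interval included. ABCG1, a cholesterol exporter, had 2 events in A8 and 2 in A8i-A, beside 1 in A8i and 2 in A8i-B. ABCA5 had 3, 0, 0 and 0, ABCB9, a lysosomal peptide transporter, had 4, 2, 1 and 3, and ABCC4, an exporter of cyclic nucleotides, had 0, 0, 1 and 0. The return of ABCG1 to its parental number was by 1 event.

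Genes of cholesterol synthesis and transport had 108 and 104 events, or 96.3% (72.8–127%). NPC1, which moves cholesterol out of lysosomes, had 4, 1, 1 and 2 events. Steroidogenesis genes had 43 and 35 events over 16 genes, or 81.4% (50.6–130%), with 4 higher, 8 lower and 4 equal and a median log2 ratio of -0.29. HSD17B1, which makes estradiol from estrone, had 1, 1, 5 and 2 events, and SCARB1, a receptor for high-density lipoprotein, had 5, 2, 2 and 2. Genes of folding and export in the endoplasmic reticulum had 134 and 121 events, or 90.3% (70.0–116%). DERL2, of the degradation of misfolded proteins, had 8, 4, 1 and 6 events, and SEC13, a coat protein of transport vesicles, had 2, 2, 5 and 2.

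DNA repair genes had 205 events in A8 and 192 in A8i-A, or 93.7% (76.5–115%), with 20 higher, 32 lower and 12 of 64 equal, where 24.9%, 33.4% and 41.7% of all genes were so. ATR, a kinase that senses replication stress, had 1 event in A8 and 5 in A8i-A, beside 1 in A8i and 4 in A8i-B. OGG1, a glycosylase for oxidized guanine, had 1, 1, 5 and 0 events, TDG, a thymine glycosylase, had 4, 3, 0 and 3, and PMS2, of mismatch repair, had 3, 2, 0 and 0. PMS2 has near-identical pseudogenes, so its events are uncertain. MUTYH, a glycosylase for mispaired adenine and one of the 5 genes with the most events in the pair, had 19, 26, 23 and 20. Cell cycle genes had 142 and 132 events, or 93.0% (72.8–119%), with 12 higher, 15 lower and 20 equal. CDT1, which licenses replication, had 2, 1, 0 and 1 events and RBL2, a relative of the retinoblastoma protein, had 0, 1, 2 and 2. The p53 targets had 69 and 63 events, or 91.3% (63.8–130%). MDM2, the ubiquitin ligase of p53, had 6 events in A8 and 1 in A8i-A, beside 3 in A8i and 6 in A8i-B, and FAS, a death receptor with a soluble splice form, had 3, 5, 1 and 5.

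The mitogen-activated protein kinase genes had 81 events in both libraries, with 11 of 34 higher and 13 lower, beside 24.9% and 33.4% of all genes. ARAF, a Raf kinase, had 0, 2, 2 and 0 events, and MAPK14, the p38 alpha kinase, had 3, 2, 1 and 1. Genes of stemness and drug resistance had 33 and 30 events, or 90.9% (53.6–154%). The transmembrane receptor gene NOTCH1 had 0, 1, 1 and 0 and its relative NOTCH2 had 1, 1, 0 and 0. Genes for ECM1 partners and related genes named by the study had 56 and 51 events over 11 genes, or 91.1% (61.1–136%), with 2 higher, 4 lower and 5 equal.

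In the largest lists A8i-A lay between A8i and A8 in number. ZNF zinc finger genes, mostly transcriptional repressors, had 534 events in A8 and 471 in A8i-A, beside 386 in A8i and 557 in A8i-B over 279 genes. The ratio of A8i-A was 88.2% (77.8–100.02%) beside a background ratio of 89.5%. ZNF346 had 0, 2, 5 and 2 events, whereas ZNF592 had 5, 1, 0 and 1 and ZNF720 had 5, 1, 0 and 0. The list of snoRNA host and antisense long noncoding genes had 468 events in A8 and 459 in A8i-A, beside 321 in A8i and 455 in A8i-B, or 98.1% (86.0–112%) for A8i-A and 68.6% for A8i. Of 235 such genes, 76 were higher in A8i-A, 78 were lower and 81 were equal, where 24.9%, 33.4% and 41.7% of all genes were so. The 2-fold limit was passed by 58 upward and 48 downward, beside 11.3% and 16.2% of all genes. The highest log2 ratio of the list was at NOP14-AS1 and the lowest at OR2A1-AS1, which had 6 events in A8 and 0 in A8i-A, beside 2 in A8i and 1 in A8i-B.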

How the data were processed

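RNA was sequenced from 4 cell lines, with 1 library each. Per the paper's methods, TRIzol RNA was sequenced on an Illumina HiSeq instrument, trimmed with Trim Galore, checked with FastQC, mapped with TopHat to hg19 and quantified with Cufflinks 2.2.1. The submitters' processing notes name a mouse build, GRCm38, while the identifiers are of human genes. The deposited values used here are whole-number counts of events per gene that the authors provided without further scaling. The kind of event, the counting program and its filters are not given in the sources used here, and depth is unknown. The number of columns left unused was 0.

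Each ratio of summed events has an exact 95% interval by the method of Clopper and Pearson, given the sum of both libraries, for counting error only. Log2 ratios used events + 1, which understates changes at low numbers. Genes at least 2-fold apart had a log2 ratio of 1 or more in size. Samples were grouped by their labels, and no test was made with 1 library per line. Scripts were tested on simulated data. Genes were joined by Ensembl identifier to GENCODE 44 lifted to GRCh37.

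Genes named were those the study names, the 12 largest differences each way, the 2 highest and 2 lowest log2 ratios of each list, genes at 0 in A8 or A8i-A against at least 4 in the other (at most 12 each way), genes apart in A8 from all the derived lines (at most 8 each way) and the 5 with most events. Sense and family partners of these genes, the further interferon genes DDX58, ISG20, IFI6, IRF3, IRF7, HLA-B, IFI44L and IRF9, the chromosome 3 window and the background ratios beside lists were chosen after values were seen. The members and lists were chosen with earlier results of these data known. After values were seen, the patterns for the respiratory chain, integrin and hnRNP lists were narrowed to leave out an antisense gene, genes for integrin-binding proteins and a readthrough gene. Alternatives were shares of the column total, other limits on events, a pseudocount of 0.5 and subsets of genes. Some genes and sequences are not reported here. Python 3.11.15, numpy 2.4.6, pandas 2.3.3, scipy 1.17.1 and matplotlib 3.10.9 were used.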

Additional observations from a re-analysis of the deposited data

How the results depend on the processing

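Over genes with an event in all 4 libraries, A8i-A had 95.1% of the events of A8, in place of 92.6% over all genes. The 1117 genes 2-fold higher became 280 among genes with an event in both libraries and 178 among genes with at least 5 events in the pair. The 1605 genes 2-fold lower became 440 and 307 under the same limits and 542 on shares of the total. On shares, falls exactly at the limit, such as from 1 event to 0, no longer pass. With at least 2 events asked for, genes with events in A8 and none in A8i-A fell from 1165 to 345 in number, and the reverse from 837 to 197. The restriction to protein-coding genes (92.6%) and leaving out the 1% of genes with the most events (92.3%) kept the total within its counting interval of 90.9–94.3%. A difference of at least 2 events in place of the 2-fold rule gave 911 genes higher and 1352 lower. A pseudocount of 0.5 left both counts of 2-fold genes unchanged. With whole numbers of events it has to call the same genes, so it is no check of them. The ratios of the 29 lists moved with the share scale by less than their counting intervals, though 7 of the 20 below 100% then lay above it. No named gene that differed on raw events changed direction. Of the genes that differ, 3503 do so by a single event, and the unknown depth limits what their differences can show. No paired analysis was possible because each line has a single library.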
